A study of Mus musculus with 9 samples.

Results

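The transcripts described here are those of 7 mouse selenoenzyme genes, the glutathione peroxidases Gpx1, Gpx2, Gpx3 and Gpx4 and the thioredoxin reductases Txnrd1, Txnrd2 and Txnrd3. They were found on the arrays as every non-control probe whose accession maps to 1 of these symbols, which gave 1 probe for each gene, 7 of the 32451 genes or accessions on the array. Spleens of female balb/c mice were measured on 9 Agilent 1-colour arrays, 3 for each group. The normal Se GD group had Graves' disease (GD) and a normal dietary selenium (Se) supply, the low Se GD group had the disease and a low supply, and the low Se non-GD group had a low supply without the disease. By its title the study is about selenium intake and the risk and course of Graves' disease, an autoimmune overactivity of the thyroid. The sources used here give no ages, no diet composition and no account of how the disease was brought about, and no group had a normal supply without disease. The labels do not say whether samples of a group came from separate mice, so p-values reflect the spread from sample to sample alone, part or all of which may be technical.

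Selenium enters proteins as the amino acid selenocysteine, which sits in the active site of all these enzymes. Glutathione peroxidases reduce hydrogen peroxide and lipid peroxides with glutathione. Thioredoxin reductases pass electrons from NADPH to thioredoxin, which in turn serves peroxiredoxins and ribonucleotide reductase. When selenium is scarce, the enzymes are not made equally. In rodent tissues the Gpx1 transcript and protein are known to be among the first to fall, whereas Gpx4 is kept longer.

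All 7 genes matched the RefSeq promoter table (GRCm38.p6), with 12 start sites among them. The 250 bases before a start site are shown for the 3 genes whose transcripts were called in a comparison and for Txnrd2, the member with the smallest p-value between the diets. The core of the antioxidant response element, TGACNNNGC, was searched on both strands, and a match is in capitals (its other-strand form is GCNNNGTCA).

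Gpx1, chr9:108338830-108339079, plus strand: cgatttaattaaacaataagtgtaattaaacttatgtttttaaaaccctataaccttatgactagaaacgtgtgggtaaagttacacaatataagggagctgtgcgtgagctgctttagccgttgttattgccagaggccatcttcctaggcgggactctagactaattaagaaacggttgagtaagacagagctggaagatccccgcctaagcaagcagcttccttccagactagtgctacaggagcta
Gpx3, chr11:54902604-54902853, plus strand: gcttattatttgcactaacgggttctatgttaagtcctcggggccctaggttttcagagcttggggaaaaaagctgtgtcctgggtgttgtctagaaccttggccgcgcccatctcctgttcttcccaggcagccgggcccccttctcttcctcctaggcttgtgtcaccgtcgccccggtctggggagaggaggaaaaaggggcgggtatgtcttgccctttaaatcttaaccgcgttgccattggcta
Txnrd1, second of 3 start sites, chr10:82858956-82859205, plus strand: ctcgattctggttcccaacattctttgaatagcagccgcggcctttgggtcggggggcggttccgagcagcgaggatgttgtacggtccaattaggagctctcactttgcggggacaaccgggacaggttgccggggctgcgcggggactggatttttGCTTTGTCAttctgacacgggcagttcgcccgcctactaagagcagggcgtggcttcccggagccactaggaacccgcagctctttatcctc
Txnrd2, chr16:18426167-18426416, plus strand: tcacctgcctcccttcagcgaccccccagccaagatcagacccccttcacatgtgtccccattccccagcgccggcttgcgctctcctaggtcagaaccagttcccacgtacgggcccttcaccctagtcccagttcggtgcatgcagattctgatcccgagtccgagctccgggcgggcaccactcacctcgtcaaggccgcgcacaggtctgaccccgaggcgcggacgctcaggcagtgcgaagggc

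The antioxidant core was found in 1 of the 12 windows of these genes, that of the second start site of Txnrd1, where it read GCTTTGTCA and ended 83 bases before the start. Of all 32851 promoter windows in the table, 10.2% held this core. The arrays did not tell the start sites of Txnrd1 apart.

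Signals are given as log2 of the processed intensity minus the 75th percentile of the array, so that 0 is the brightness of the spot at that percentile. Each probe has its own brightness per transcript, so these levels are compared between groups and not between genes. All 7 probes were well above background on all 9 arrays, with 0 outlier marks and 0 saturated spots, and so all 7 passed the filter on dim probes. Their processed intensities ran from 85.4 (Gpx2 on normal Se GD array 3) to 56410 (Gpx1 on low Se GD array 2).

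Several arrays stood apart. The share of spots well above background was 58.4% on normal Se GD array 3, against 72.6% to 82.6% on the other 8 arrays. Low Se GD array 2 lay between the other arrays of its group for 69.0% of 18541 genes and for 6 of 7 members. Low Se non-GD array 3 did so for 78.3% and for 5 of 7 members. These 2 are called the in-between arrays below. The next highest share was 55% of genes, with 2 of 7 members, on normal Se GD array 1. The arrays had been read in 3 scans. Scan 1 held low Se GD array 1 with all 3 low Se non-GD arrays, scan 2 held low Se GD arrays 2 and 3 and normal Se GD arrays 1 and 2, and scan 3 held normal Se GD array 3. The E1A control spot a107 read 0.82 to 2.36 in normal Se GD, 1.0 to 2.51 in low Se GD and 4.72 to 5.84 in low Se non-GD. The low Se non-GD arrays thus read above all others, also above low Se GD array 1 of the same scan (2.51). That group is the reference of both comparisons in which members were called in the main processing. All 5 B cell and 5 T cell markers were well above background on all 9 arrays, as in spleen. The part of these array differences in the results below was not tested except where a value without an array or within a scan is given.

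**Figure D1:**
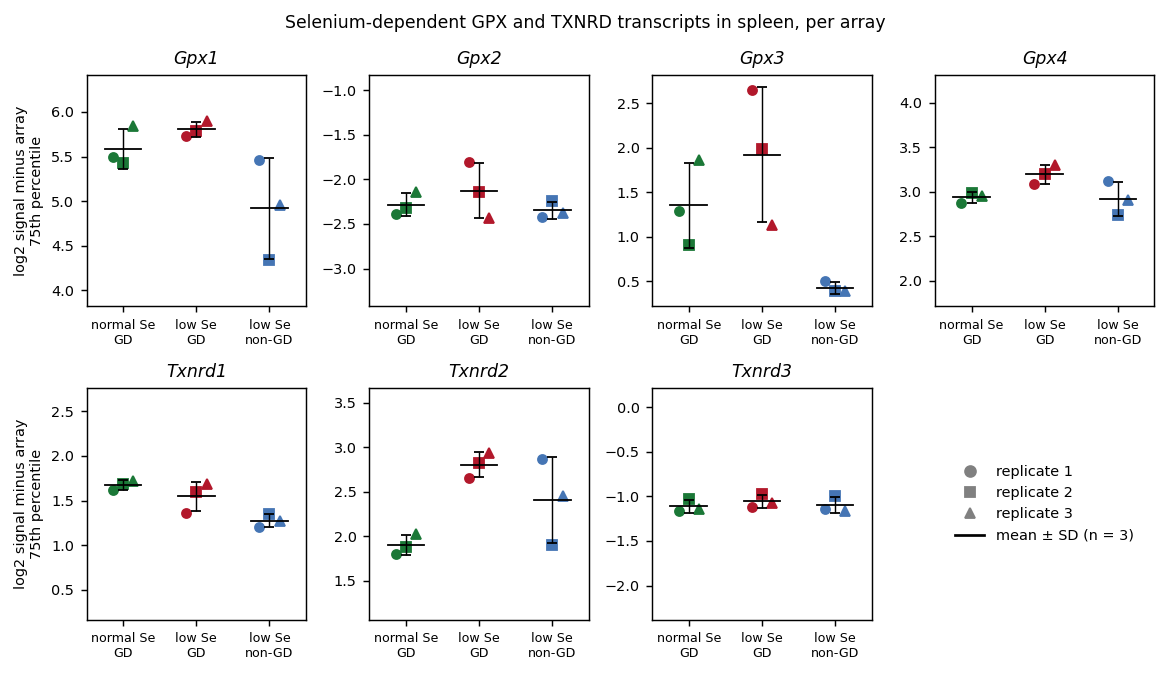
Log2 signal relative to the 75th percentile of the array for each of the 7 genes (y axis, same span in each panel) by group (x axis), with 1 point per array and the mean ± SD of 3 arrays as a bar. The low Se non-GD arrays are lowest for Gpx1 on average and for Gpx3 and Txnrd1 in every array, and the normal Se GD arrays of Txnrd2 lie below the low Se GD arrays.

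At a low selenium supply, diseased spleens were first set against those without disease, to ask which transcripts differ with the disease. The transcripts of Gpx1 and Gpx3 were higher in the diseased spleens, and those of the other 5 members did not pass the test. These 2 of 7 calls, both upward, stand against a background of 24.9% of 26325 genes called in either direction, 12.8% called higher and 12.2% called lower. The share of members called is near that of all genes, so the count itself is no result about the family. Fitting all 31868 probes separately called the same 2 members, against 25.1% of probes. The median log2 difference was 0.27 over the 7 members and 0.08 over all genes tested. The groups did not overlap for 3 of 7 members, against 53% of all genes.

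Gpx1 encodes the cytosolic glutathione peroxidase found in nearly all cells and abundant in red cells. Its probe (A_52_P684378, a gene on chromosome 9) read 5.73, 5.79 and 5.90 in low Se GD arrays 1 to 3, against 5.46, 4.34 and 4.95 in low Se non-GD arrays 1 to 3. The low Se GD arrays were tightly grouped and all higher, while the low Se non-GD arrays were spread over more than 1 log2 unit. The means were 5.81 ± 0.09 in low Se GD and 4.92 ± 0.56 in low Se non-GD (SD, n = 3 each). Gpx1 was therefore 1.85-fold higher, a log2 difference of 0.89 (SE 0.26, 95% interval 0.28 to 1.50, adjusted p = 0.0434 by limma). Relative to the median gene the difference was 0.81, and it lay between 0.81 and 1.07 under 5 ways of processing the arrays. These were the main one, another background correction (normexp), quantile normalization, median scaling and the authors' deposited table. The main one and median scaling give the same value here by construction.

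The spread of Gpx1 among low Se non-GD spleens ran with markers of red cell precursors. The summed signal of 7 such markers, in multiples of the 75th percentile, was 423, 349 and 407 in low Se GD arrays 1 to 3, against 525, 186 and 372 in low Se non-GD arrays 1 to 3. Array 2 of the low Se non-GD group was lowest and array 1 highest for both the markers and Gpx1. All 7 markers were well above background on all arrays and 0 of 7 were called in this comparison, with a median difference of 0.73. Macrophage markers also differed, with 4 of 7 called higher, 0 lower and a median difference of 0.70. Their summed signal was 77.5, 88.6 and 98.6 in low Se GD arrays 1 to 3, against 60.1, 42.4 and 50.5 in low Se non-GD arrays 1 to 3, without overlap. Platelet markers summed to 26.5, 31.6 and 35.4 in low Se GD arrays 1 to 3, against 22.6, 14.3 and 18.6 in low Se non-GD arrays 1 to 3, and 2 of 4 were called higher. Gpx1 ran in the same order as both of these sums within each of the 2 groups of this comparison. B cell markers went the other way, with sums of 74.2, 73.4 and 76.6 in low Se GD arrays 1 to 3. In low Se non-GD arrays 1 to 3 they summed to 89.8, 105 and 97.6, without overlap. Of these 5 markers, 0 were called higher and 1 lower. In whole spleen, fewer cells of a type and less RNA per cell cannot be told apart. The part of these marker lists in the Gpx1 difference, and in the other differences of this comparison, was not tested.

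The Gpx1 call was close to the threshold and was lost in 14 of 22 alternative settings, while its direction was the same in all 22. Leaving out low Se non-GD array 2 reduced the difference to 0.60 (adjusted p = 0.0845). It also missed the threshold without low Se non-GD array 3, without any 1 of the 3 low Se GD arrays, and without normal Se GD array 1 or 2, with differences of 0.84 to 0.92 and adjusted p-values of 0.0607 to 0.120. With scan as a block the Gpx1 call was lost as well, at 0.81 (adjusted p = 0.184). All low Se non-GD arrays are in scan 1, so for each gene this estimate and the one within scan 1 set low Se GD array 1 alone against the 3 low Se non-GD arrays, and the lone array is assumed to vary like the others. Within scan 1 the adjusted p of Gpx1 was 0.354.

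Gpx3 encodes the secreted glutathione peroxidase of blood plasma, made mainly in kidney and also in fat tissue. Its probe (A_51_P292008, chromosome 11) read 2.64, 1.99 and 1.13 in low Se GD arrays 1 to 3, against 0.51, 0.39 and 0.39 in low Se non-GD arrays 1 to 3. Each low Se GD array was above each low Se non-GD array, and here the spread lay in the diseased group. The means were 1.92 ± 0.76 in low Se GD and 0.43 ± 0.07 in low Se non-GD (SD, n = 3 each). The log2 difference of 1.49 was the largest among the members in this comparison (SE 0.38, 95% interval 0.61 to 2.37, adjusted p = 0.0247 by limma), which is 2.81-fold. Relative to the median gene it was 1.42, with 1.34 to 1.60 under the same 5 ways of processing.

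The summed signal of fat tissue markers moved with Gpx3 among the low Se GD arrays, but not every marker did. The summed signal of 9 fat markers was 71.9, 37.1 and 10.4 in low Se GD arrays 1 to 3, against 9.0, 3.47 and 6.37 in low Se non-GD arrays 1 to 3. The order of the low Se GD arrays was the same for Gpx3 and for the summed fat markers. Array 3 of that group lay close to the highest low Se non-GD array for the sum. Adipoq, Fabp4, Plin1, Cidec, Retn and Cfd each ran in that order. Lpl (1.44, 1.51 and 1.60 in low Se GD arrays 1 to 3) and Pparg (-1.23, -0.96 and -0.80) ran in the opposite order. The largest parts of the sum on low Se GD array 1 were Fabp4 (log2 signal 5.5) and Cfd (4.24). Of the 8 fat markers tested, 5 were called higher, Pparg among them, with a median difference of 2.32. Leptin (Lep) was well above background on 0 arrays. Kidney tubule markers summed to 0.303 to 0.319 in low Se GD and 0.371 to 0.392 in low Se non-GD, far under the 75th percentile. The part of fat tissue in the Gpx3 difference of this comparison was not tested.

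Without low Se GD array 1, which had the strongest fat signal, the Gpx3 difference was 1.13 (adjusted p = 0.0538). It also missed the threshold without low Se GD array 2 and without any 1 of the 3 low Se non-GD arrays, with differences of 1.46 to 1.53 and adjusted p-values of 0.0527 to 0.0821. Within scan 1 the Gpx3 difference was 2.22, which is the value of low Se GD array 1 alone, the array with the highest fat signal, so it gives no check by replicates. Leaving out both arrays that lay between the others of their groups left 0 of 7 members called, with Gpx1 at 0.91 (adjusted p = 0.243) and Gpx3 at 1.44 (adjusted p = 0.200).

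Among the members that did not pass, Txnrd1, the cytosolic thioredoxin reductase, read 1.37, 1.59 and 1.69 in low Se GD arrays 1 to 3, against 1.20, 1.35 and 1.27 in low Se non-GD arrays 1 to 3. The groups did not overlap, although the gap between them was narrow. The log2 difference was 0.27 (SE 0.11, adjusted p = 0.105), and it was 0.37 (adjusted p = 0.0409) without low Se GD array 1 and 0.09 (adjusted p = 0.623) within scan 1. Gpx4, which reduces lipid peroxides in membranes and protects cells from ferroptosis (probe A_51_P462448, chromosome 10), read 3.09, 3.19 and 3.30 in low Se GD arrays, against 3.12, 2.74 and 2.91 in low Se non-GD arrays. The groups overlapped by 1 array, and the difference was 0.27 (95% interval -0.01 to 0.55, adjusted p = 0.139).

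The mitochondrial reductase Txnrd2 read 2.66, 2.82 and 2.94 in low Se GD arrays, against 2.87, 1.90 and 2.45 in low Se non-GD arrays. Its low Se non-GD arrays were also widely spread and in the same order as for Gpx1, with array 1 highest and array 2 lowest. The difference was 0.40 (95% interval -0.13 to 0.92, adjusted p = 0.247). Gpx2, the peroxidase of the gut lining (probe A_51_P486810, chromosome 12), read -1.81, -2.14 and -2.43 in low Se GD arrays, against -2.42, -2.25 and -2.38 in low Se non-GD arrays. Its difference was 0.22 (95% interval -0.15 to 0.60, adjusted p = 0.361), and low Se GD array 1 alone gave 0.54, with an adjusted p of 0.0378 with scan as a block and 0.0926 within scan 1. Txnrd3, the thioredoxin-glutathione reductase best known from testis (probe A_55_P2063096, chromosome 6), read -1.12, -0.97 and -1.08 in low Se GD arrays, against -1.14, -1.0 and -1.16 in low Se non-GD arrays. These groups were interleaved, with a difference of 0.04 (95% interval -0.17 to 0.26, adjusted p = 0.776).

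**Figure D2:**
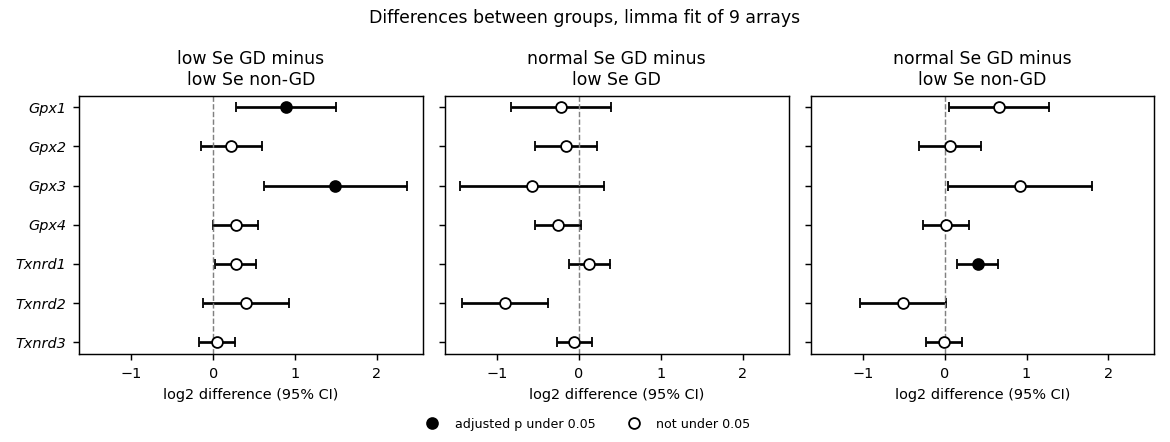
Log2 difference between groups (x axis) for each of the 7 genes (y axis) in the 3 comparisons, with 95% intervals from the limma fit of 9 arrays; filled points have an adjusted p under 0.05. Gpx1 and Gpx3 are filled in the first panel, no gene in the middle panel and Txnrd1 in the last panel.

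**Figure D3:**
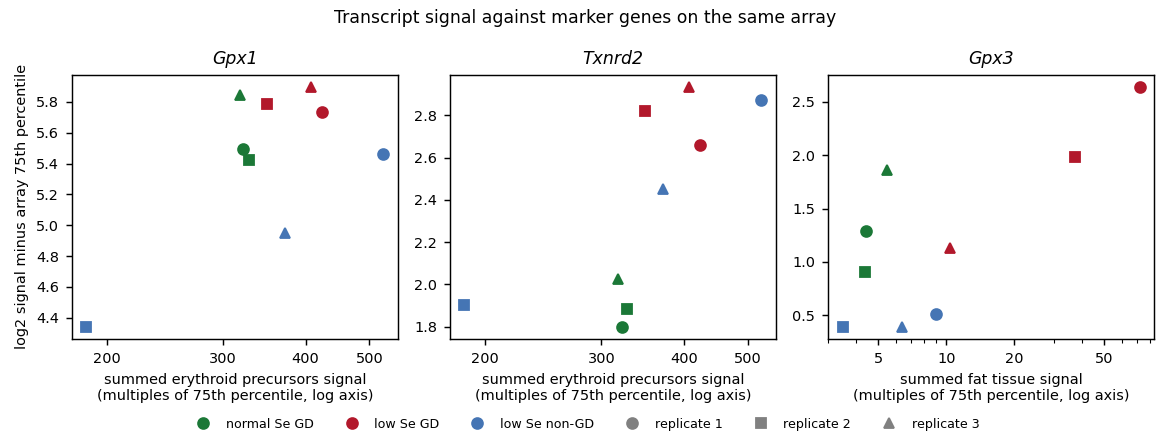
Log2 signal of Gpx1 and Txnrd2 against the summed red cell precursor markers, and of Gpx3 against the summed fat markers (x axes, log scale, multiples of the array's 75th percentile), 1 point per array. Low Se non-GD array 2 is lowest on the marker axis of the first 2 panels, and the low Se GD arrays span 10.4 to 71.9 in the Gpx3 panel while the normal Se GD arrays lie at 4.35 to 5.46.

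The second comparison, normal Se GD against low Se GD, asks what the selenium supply does to these transcripts in diseased mice. By limma, 0 of 7 members passed, against a background of 1.27% of all genes (0.976% higher and 0.292% lower) and 2.18% of probes fitted separately, and 1 of 7 had an unadjusted p under 0.05. The median difference was -0.22 over the members and 0.00 over all genes. The groups did not overlap for 2 of 7 members, against 29.4% of all genes. The selenium-sensitive Gpx1 was no higher on average with the normal supply. It read 5.50, 5.42 and 5.84 in normal Se GD arrays 1 to 3, against 5.73, 5.79 and 5.90 in low Se GD arrays 1 to 3, a difference of -0.22 (95% interval -0.83 to 0.39, adjusted p = 0.690). The upper end of 0.39 holds for this fit at 95% and is no firm bound on a rise. Over the 22 alternatives the Gpx1 difference lay between -0.38 and -0.05.

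The member with the smallest p-value was Txnrd2, which keeps mitochondrial thioredoxin reduced. Its probe (A_55_P1998912, chromosome 16) read 1.80, 1.88 and 2.03 in normal Se GD arrays 1 to 3, against 2.66, 2.82 and 2.94 in low Se GD arrays 1 to 3. The groups were separated by more than their own ranges. The means were 1.90 ± 0.12 in normal Se GD and 2.81 ± 0.14 in low Se GD (SD, n = 3 each), a log2 difference of -0.90 (SE 0.23, 95% interval -1.43 to -0.38), or 0.535 times the level. Its unadjusted p was 0.00431 and its adjusted p 0.0892, which missed the threshold. Relative to the median gene the difference lay between -1.09 and -0.80 under the same 5 ways of processing.

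Within scan 2, which holds 2 arrays of each group, the Txnrd2 difference was -1.04 (adjusted p = 0.0357). It passed as well when the genes tested were limited to those well above background on all 9 arrays (adjusted p = 0.0483). Over the 22 alternatives it lay between -1.04 and -0.82, with adjusted p-values of 0.0357 to 0.513, and 2 of the 22 passed. The red cell precursor markers summed to 322, 328 and 318 in normal Se GD arrays 1 to 3 and to 423, 349 and 407 in low Se GD arrays 1 to 3, without overlap. The largest part of each sum was Hba-a1, whose difference was 0.01 and whose groups overlapped. The other measured markers differed by -0.55 (Alas2) to -1.35 (Klf1). Of the 7 markers 0 were called, with a median difference of -0.98, and their part in the Txnrd2 values was not tested.

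Txnrd1 did not pass between the diets, with 1.62, 1.68 and 1.72 in normal Se GD arrays 1 to 3, against the low Se GD values given above. The difference was 0.13 (95% interval -0.12 to 0.38, adjusted p = 0.568). The within-array difference of Txnrd2 minus Txnrd1 does not change when 1 factor scales a whole array. It can change with quantile normalization or another background correction. This difference was looked at after the values had been seen, so it has no test. It was 0.18, 0.20 and 0.30 in normal Se GD arrays, 1.29, 1.23 and 1.25 in low Se GD arrays, and 1.67, 0.55 and 1.18 in low Se non-GD arrays. The 2 diseased groups were narrow and far apart, whereas the low Se non-GD arrays were widely spread and all above the normal Se GD arrays.

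Gpx4 read 2.87, 2.99 and 2.95 in normal Se GD arrays, against 3.09, 3.19 and 3.30 in low Se GD arrays. These groups did not overlap, and the difference was -0.26 (95% interval -0.54 to 0.02, adjusted p = 0.291). Gpx3 read 1.29, 0.91 and 1.86 in normal Se GD arrays, against 2.64, 1.99 and 1.13 in low Se GD arrays. The groups overlapped and the difference of -0.57 had a wide interval (-1.45 to 0.31, adjusted p = 0.458). Fat markers summed to 4.41, 4.35 and 5.46 in normal Se GD arrays, below all 3 low Se GD arrays. Gpx2 read -2.38, -2.32 and -2.14 in normal Se GD arrays 1 to 3, within the range of the low Se GD arrays, and the difference was -0.16 (adjusted p = 0.637). Txnrd3 read -1.17, -1.03 and -1.14 in normal Se GD arrays 1 to 3, and the difference was -0.05 (95% interval -0.27 to 0.16, adjusted p = 0.788).

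The third comparison sets normal Se GD against low Se non-GD, so that disease and diet differ together. Txnrd1 was the 1 of 7 members that passed, upward, against a background of 32.3% of all genes called, 18.9% higher and 13.4% lower, and of 33.5% of probes fitted separately. The median difference was 0.07 over the members and 0.06 over all genes, and 2 of 7 members had groups that did not overlap, against 49.1% of genes. This comparison shares its arrays with the other 2, so its values are not independent of theirs.

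The Txnrd1 probe (A_51_P320614, chromosome 10) read 1.62, 1.68 and 1.72 in normal Se GD arrays 1 to 3, against 1.20, 1.35 and 1.27 in low Se non-GD arrays 1 to 3. Both groups were tight and lay apart. The means were 1.68 ± 0.05 in normal Se GD and 1.27 ± 0.08 in low Se non-GD (SD, n = 3 each), a log2 difference of 0.40 (SE 0.11, 95% interval 0.15 to 0.65, adjusted p = 0.0248 by limma), or 1.32-fold. Relative to the median gene it was 0.34, with 0.34 to 0.41 under the same 5 ways of processing.

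With scan as a block the Txnrd1 difference was 0.10 (adjusted p = 0.580). No scan holds both of these groups, so that estimate rests on low Se GD array 1 as the 1 link to the low Se non-GD arrays, and no value within a scan could be had. The call was lost without low Se non-GD array 1 or 3 and without normal Se GD array 1 or 2, with differences of 0.37 to 0.43 and adjusted p-values of 0.0515 to 0.0854. It was also lost without both in-between arrays (0.40, adjusted p = 0.160). The 7 measured macrophage markers were all called higher here, and their summed signal was 94.5, 100 and 110 in normal Se GD arrays 1 to 3, against 60.1, 42.4 and 50.5 in low Se non-GD arrays 1 to 3. Txnrd1 and these markers ran in the same order among the normal Se GD arrays and among the low Se GD arrays, and in the opposite order among the low Se non-GD arrays. The part of the markers in the Txnrd1 difference was not tested.

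Gpx3 was higher in each normal Se GD array than in each low Se non-GD array, with means of 1.35 ± 0.48 in normal Se GD and 0.43 ± 0.07 in low Se non-GD (SD, n = 3 each). The difference of 0.92 did not pass (95% interval 0.05 to 1.80, adjusted p = 0.101). Fat markers in normal Se GD (4.35 to 5.46) lay within the range of low Se non-GD (3.47 to 9.0), but much of that sum in normal Se GD was Lpl. Without Lpl the other 8 markers summed to 1.22 to 1.40 in normal Se GD and 0.888 to 5.59 in low Se non-GD. Of the 8 markers tested, Pparg was called higher (0.71, adjusted p = 0.0316), the median was -0.45, and Retn was lower in each normal Se GD array than in each low Se non-GD array (-1.25, adjusted p = 0.109). Without low Se GD array 3, which enters only through the shared spread, Gpx3 passed (0.92, adjusted p = 0.0434), as it did with scan as a block (1.76, adjusted p = 0.0477), an estimate that again rests on low Se GD array 1.

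Gpx1 had a difference of 0.67 (95% interval 0.06 to 1.28, adjusted p = 0.0899), and it passed without low Se non-GD array 1 (0.94, adjusted p = 0.0189). Quantile normalization gave 1.02 (adjusted p = 0.0404) for Gpx1, and the values of the authors' deposited table gave 1.04 (adjusted p = 0.0382). Txnrd2 was at -0.51 (95% interval -1.03 to 0.02, adjusted p = 0.129) and passed without low Se non-GD array 2 (-0.76, adjusted p = 0.0184). Gpx4 (0.02, 95% interval -0.26 to 0.30), Gpx2 (0.07, -0.31 to 0.44) and Txnrd3 (-0.01, -0.23 to 0.21) had intervals around 0.

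The order of group means differed between members. For Gpx1, Gpx3, Gpx4, Gpx2, Txnrd2 and Txnrd3 the low Se GD mean was highest, and for Txnrd1 the normal Se GD mean was. The lowest mean was that of low Se non-GD for Gpx1, Gpx2, Gpx3, Gpx4 and Txnrd1, and that of normal Se GD for Txnrd2 and Txnrd3. Neighbours in these orders did not differ past the threshold for any of the 7 members, and the 3 calls were each between the highest and the lowest group mean of their gene.

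Whether Gpx1 changed more than Gpx4, which selenium shortage is known to spare, was tested on the within-array difference of the 2 signals. Its change of 0.61 between low Se GD and low Se non-GD came from 2.64, 2.59 and 2.60 in low Se GD arrays, against 2.34, 1.60 and 2.04 in low Se non-GD arrays. The groups did not overlap, and the exact 2-sided permutation p was 0.1, the smallest that 3 against 3 arrays can give. Both of these groups had a low supply, so this change is not one with selenium. Only normal Se GD and low Se GD differ in supply alone by their labels. Between normal Se GD and low Se GD the change was 0.04 (exact permutation p = 0.8), with values of 2.62, 2.44 and 2.89 in normal Se GD arrays on both sides of the low Se GD values. None of these permutation tests could reach 0.05. Between normal Se GD and low Se non-GD it was 0.65 (exact permutation p = 0.1). Gpx1 minus Txnrd1 changed by 0.61 (p = 0.3), -0.35 (p = 0.1) and 0.27 (p = 0.6) in the 3 comparisons in order, by the same exact permutation test.

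**Figure D4:**
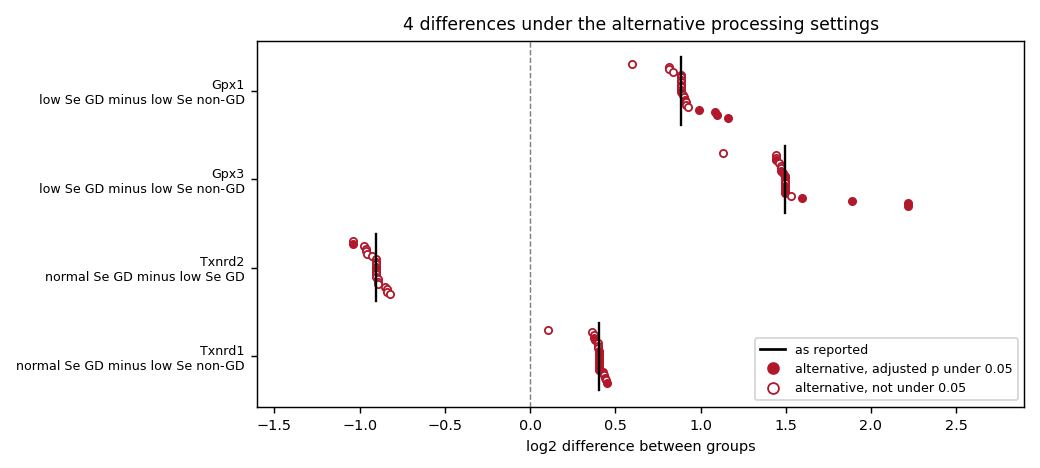
Log2 difference (x axis) of 4 gene and comparison pairs (y axis), with the reported value as a black line and 1 point per alternative setting, filled where the adjusted p is under 0.05. Every point keeps the sign of its line, with Gpx1 filled in 8 of 22 settings, Gpx3 in 14 of 22, Txnrd2 in 2 of 22 and Txnrd1 in 13 of 21.

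Other genes of the same pathways were counted by list, to be read against the shares of all genes called. In low Se GD relative to low Se non-GD, 12.8% of all genes were called higher and 12.2% lower. In normal Se GD relative to low Se non-GD the shares were 18.9% and 13.4%, and between the diets 1.27% were called. The lists were chosen with earlier results of these data known, so their counts are no test of a pathway. Of 12 genes for the supply and reduction of glutathione, 2 rose and 0 fell in low Se GD relative to low Se non-GD, with a median of 0.34 against 0.08 over all genes. Glutathione reductase (Gsr), which returns oxidised glutathione to the form that peroxidases use, rose by 0.94 (SE 0.09, adjusted p = 0.000889), and Chac1, which breaks glutathione down, by 1.97 (SE 0.29, adjusted p = 0.00325). In normal Se GD relative to low Se non-GD, 4 rose and 0 fell, with a median of -0.02 against 0.06. These were Gsr (1.23, adjusted p = 0.000320), the cystine carrier subunit Slc7a11 (0.79, adjusted p = 0.0234), glutathione synthetase Gss (0.58, adjusted p = 0.0320) and glutaredoxin Glrx (0.70, adjusted p = 0.00999). Between the 2 diets 0 of 12 passed.

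NADPH is the electron source of both enzyme families. Of 8 measured genes of its supply, 4 rose and 0 fell in low Se GD relative to low Se non-GD, with a median of 0.34. These were Pgd (0.36), Pgls (0.62), Me1 (1.06) and Idh1 (0.98), with adjusted p-values of 0.0433, 0.00533, 0.00255 and 0.00501 in that order. Pgd and Pgls act in the pentose phosphate pathway, and Me1 and Idh1 are cytosolic enzymes that make NADPH from malate and isocitrate. In normal Se GD relative to low Se non-GD 3 rose, Pgd (0.44), Pgls (0.88) and Idh1 (1.62), with a median of 0.36 for the list, and between the diets 0 of 8 passed. Me1 is also abundant in fat tissue.

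Among 12 thioredoxins, peroxiredoxins and their partners, 4 rose and 0 fell in low Se GD relative to low Se non-GD, with a median of 0.33. They were the thioredoxin-binding protein Txnip (0.86) and the peroxiredoxins Prdx1 (0.40), Prdx3 (1.06) and Prdx4 (0.56), with adjusted p-values of 0.0245, 0.0417, 0.00610 and 0.0332 in that order. In normal Se GD relative to low Se non-GD, 4 rose (Txnip, Prdx1, Prdx3 and Prdx5, by 0.37 to 0.82) and 2 fell, with a median of 0.29.

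Mitochondrial thioredoxin Txn2, the substrate of Txnrd2, was 1 of the 2 that fell there, with a difference of -0.69 (adjusted p = 0.00135), and sulfiredoxin Srxn1 was the other (-0.49, adjusted p = 0.0190). Txn2 was also the 1 gene of these enzyme lists that passed between the diets. It read 3.55, 3.47 and 3.41 in normal Se GD arrays 1 to 3, against 4.02, 3.99 and 4.01 in low Se GD arrays 1 to 3, a difference of -0.53 (SE 0.08, adjusted p = 0.0438). In low Se GD relative to low Se non-GD it did not pass (-0.16, adjusted p = 0.219). The count of all genes called between the diets, on which this call depends, was 334 and fell to 0 under several alternatives.

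Of the 4 other enzymes that handle superoxide and hydrogen peroxide, extracellular Sod3 fell in low Se GD relative to low Se non-GD (-0.84, adjusted p = 0.0231), and mitochondrial Sod2 rose in normal Se GD relative to low Se non-GD (0.39, adjusted p = 0.0440). Catalase (Cat) passed in 0 of 3 comparisons. The glutathione peroxidases with cysteine in place of selenocysteine in mice, Gpx5 to Gpx8, gave 0 calls in any comparison over the 3 that were tested, and Gpx5 was well above background on 0 arrays.

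The genes whose pattern over the 9 arrays lay nearest to each called member were found among 13359 genes by the root mean square of the centred log2 difference. For Gpx1 they were Cdc25b (0.07), Grina (0.08) and Paqr4 (0.11), small beside the SD of 0.50 of Gpx1 over the arrays. For Txnrd1 they were Strbp (0.03), Serf2 (0.04) and Slc25a25 (0.04), against an SD of 0.20. For Gpx3 they were Tmem35a (0.22), Depp1 (0.23) and Dapk1 (0.23), against an SD of 0.79. Depp1 read -2.01, -2.80 and -4.25 in low Se GD arrays 1 to 3, the same order as the summed fat markers.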

How the data were processed

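Total RNA of spleen was labelled by a 1-colour protocol and hybridised to Agilent mouse arrays (design 026655), per the labels' protocols. The authors deposited scanner files of linear intensity per spot, which the file headers credit to Feature Extraction 11.0.1.1, and a log2 value table with a median of 6.43 per column, with no account of its making in the sources used here. The 3 low Se non-GD columns of that deposited table each matched another array of the group best (rank correlation 0.997 to 0.998, against 0.980 to 0.987 for their own), so replicate numbers there are uncertain.

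Processed intensities were taken as log2 minus the 75th percentile of non-control spots. Marked spots were left out, spots of a probe averaged, and the brightest probe of each gene used. Probes were named through GRCm38.p6 accessions (27234 of 39429 named). Genes well above background on at least 3 of 9 arrays were tested, 26325 in all. Groups came from the labels. limma 3.58.1 in R 4.3.3 (2-sided, 6 residual and 1.81 prior degrees of freedom) gave differences, adjusted by Benjamini and Hochberg with a threshold of 0.05. The number of arrays limits the precision. Simulated data were used to test the fit. Alternatives were other scalings and backgrounds (normexp on spot medians, offset 50, as spot means are not in the columns used), filters, the mean of probes, scan and replicate blocks, and arrays left out. Named genes were all members, called genes of the lists, and the 3 nearest patterns of each called member. Members and lists were chosen with earlier results of these data known.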

Additional observations from a re-analysis of the deposited data

How the results depend on the processing

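Over 455 repeats of the member differences under alternative settings, 394 kept their direction and their side of the threshold, 30 lost the call, 11 gained it and 20 changed sign, and 0 of those that changed sign passed the test. Unless a cause is named, the cause of a change was not tested; settings with fewer arrays also have fewer residual degrees of freedom.

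Between low Se GD and low Se non-GD, the 2 member calls became 1 with no filter on dim probes, within scan 1 and with only the 6 arrays compared, and 0 with the replicate block, without both in-between arrays, and without these and normal Se GD array 3 (a setting chosen after seeing the data). Scan as a block kept 2 calls but ended that of Gpx1 (0.81, adjusted p = 0.184) and added Gpx2 (0.54, adjusted p = 0.0378), an estimate from low Se GD array 1 alone. Leaving out 1 array gave 0 to 2 member calls, by gene or by probe, and 3448 to 10786 calls among all genes, against 6556. All-gene calls were 947 within scan 1, 269 without the in-between arrays and 2930 without these and normal Se GD array 3. The median of all genes was -0.16 with normexp background, 0.13 with quantile normalization, 0.18 with median scaling and 0.14 in the authors' table, against 0.08. Calls split 3357 higher and 3199 lower, and 2248 higher and 3254 lower with normexp.

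For normal Se GD against low Se GD, 1 member (Txnrd2) passed with the filter at all 9 arrays and within scan 2, and leaving out 1 array gave 0 calls by gene and 0 to 1 by probe. The 334 all-gene calls became 0 with normexp, median scaling, no filter, the replicate block, only 6 arrays and either in-between setting, 46 with quantile normalization, 3 in the authors' table, 1288 with the all-array filter, 1713 with scan as a block, 2797 within scan 2, and 0 to 1076 without 1 array.

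For normal Se GD against low Se non-GD, the 1 member call became 2 with quantile normalization, the authors' table and only 6 arrays, 0 with median scaling and either in-between setting, and 0 to 2 without 1 array (by gene or by probe). Scan as a block kept 1, with Gpx3 in place of Txnrd1. The 8514 all-gene calls became 5552 with normexp, 4828 with scan as a block, 3043 and 5550 in the in-between settings, and 5415 to 11539 without 1 array.

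Txnrd3 changed sign in the first comparison with normexp (-0.058), scan as a block or within scan 1 (-0.018) and either in-between setting (-0.028), in the second with normexp (0.0036) and the added setting (0.0007), and in the third with quantile normalization (0.0061), median scaling (0.032), the authors' table (0.037) and 1 array left out (-0.051 to 0.042). Gpx2 did so in the second without 1 array (-0.31 to 0.0012), and in the third with normexp (-0.013), the added setting (-0.020) and 1 array left out (-0.0053 to 0.12). Gpx4 did so in the third with scan as a block (-0.15) and 1 array left out (-0.077 to 0.12). The within-array change of Gpx1 minus Gpx4 ran from -0.081 (without normal Se GD array 3) to 0.15 in the second with 1 array left out, and that of Gpx1 minus Txnrd1 from -0.061 (without low Se non-GD array 2) to 0.58 in the third.

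Deviations of samples with the same replicate number had no common direction (correlations from -0.361 to 0.237). These few values cannot tell whether the numbers pair the samples. With the replicate block, Gpx1 (adjusted p = 0.0557) and Gpx3 (0.0515) missed the threshold in the first comparison, and Txnrd1 passed in the third (0.0371). No value within a scan was possible for the third comparison, as no scan holds both groups. Dim signal was no limit for the members, which were well above background on all arrays.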
